A study of Homo sapiens with 11 samples.

Results

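The tongue squamous carcinoma line SCC9 was exposed to cisplatin and nimesulide together or to nimesulide alone, and the arrays of these treatments were compared to show what cisplatin adds when nimesulide is present. The comparison took its arrays from their titles, the 2 combination arrays with the letters A and B and the 3 nimesulide arrays with the letters A, B and C, 5 arrays of the 11 in the series. Combination cells received 0.5 µmol/L cisplatin with 100 µmol/L nimesulide, and nimesulide cells received 100 µmol/L nimesulide. The other 6 arrays were 3 with 0.5 µmol/L cisplatin and 3 untreated controls, and they gave the same addition of cisplatin without nimesulide. SCC9 is 1 established line (its name is also spelled SSC9 in the sources), so the values describe this line, and a combination array of letter C was not analysed here. The labels do not state that the letters were separate cultures, so the p-values reflect only how far these samples scatter, which may be technical.

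Cisplatin is a platinum drug that binds to purine bases and joins them within and between DNA strands. Cells remove such lesions by nucleotide excision repair and by the Fanconi anaemia pathway for crosslinks between strands, and the checkpoint kinases ATR and ATM signal the damage to the cell cycle and, where the protein is functional, to p53. Nimesulide inhibits cyclooxygenase-2, which makes the precursor of the prostaglandins.

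Values are log2 RMA values, in which a difference of 1 is a 2-fold difference, and all differences are combination minus nimesulide unless stated. A gene stands for the probe set with its highest mean over the 11 arrays, which gave 8549 genes among 16383 probe sets. The medians of the arrays lay between 5.37 and 5.43. Arrays correlated at 0.996 to 0.997 within a treatment and at 0.996 to 0.998 between combination and nimesulide. Of 12 measured squamous epithelial markers, 9 were above the array median on all 5 arrays, among them KRT5, KRT16, CDH1 and EPCAM, and the mean of the list was 7.80 to 7.92 on combination arrays and 7.69 to 7.94 on nimesulide arrays. Of 9 fibroblast markers 1 was above it (THY1), of 6 endothelial markers 0, and of 8 immune markers 1 (CD3E). The fibroblast list averaged 4.53 to 4.57 on combination arrays and 4.54 to 4.63 on nimesulide arrays, the endothelial list 3.89 to 4.02 with the combination and 4.05 to 4.08 with nimesulide, and the immune list 4.51 to 4.57 with the combination and 4.53 to 4.59 with nimesulide.

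No probe set passed the test when cisplatin was added to nimesulide. In limma's moderated test over all 11 arrays, 0 of 16383 probe sets (0.0%) had a Benjamini-Hochberg adjusted p under 0.05, and the smallest adjusted p was 0.672. An unadjusted p under 0.05 was found for 1113 probe sets (6.79%). No probe set reached a 2-fold difference in either direction, and single genes ranged from -0.48 to 0.48. The median standard error was 0.09, and the 95% interval lay inside a 2-fold difference either way for 16372 probe sets (99.9%) and inside 0.5 log2 units either way for 97.0%. Cisplatin against control, which shares no array with this comparison, also had 0 probe sets (0.0%) past the threshold, with 761 (4.65%) at an unadjusted p under 0.05 and a smallest adjusted p of 0.903. The test of whether the cisplatin difference itself differed with and without nimesulide called 0 probe sets (0.0%), with 748 (4.57%) at an unadjusted p under 0.05 and a smallest adjusted p of 0.963.

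The comparison was also read within each letter. The difference within letter A and the difference within letter B had the same sign for 53.02% of the 8549 genes, and across genes, which are not independent, they correlated at r = 0.117 (rho = 0.131). Differences within letter B were wider, with a standard deviation over genes of 0.18, against 0.14 within letter A. A difference of 0.25 or more was found for 274 genes within letter A, for 623 within letter B and for 28 within both. A difference of -0.25 or less was found for 408 genes within letter A, for 753 within letter B and for 54 within both. The combination was higher within both letters for 1879 genes (22.0%) and lower within both for 2654 (31.0%).

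**Figure D1:**
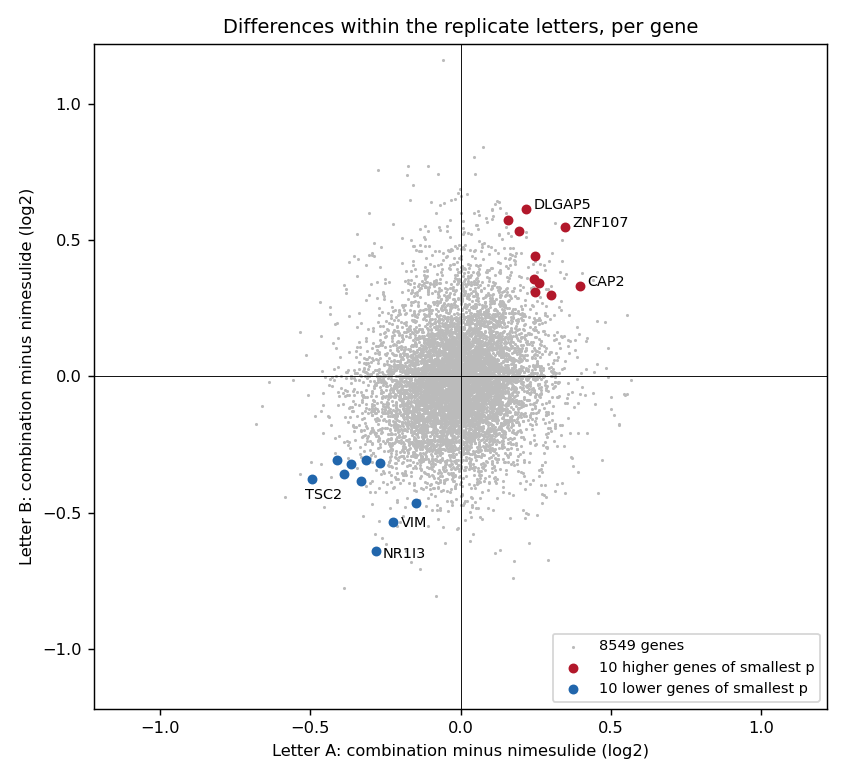
Each point is a gene, with the difference combination A minus nimesulide A on the horizontal axis and combination B minus nimesulide B on the vertical axis, both in log2 units. The cloud of 8549 genes has no marked diagonal (r = 0.117), and the coloured genes, chosen by their small p, lie in the 2 quadrants where both letters have the same sign.

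Both combination arrays lay above all 3 nimesulide arrays for 740 genes (8.66%) and below all 3 for 1146 genes (13.4%). These counts are descriptions of how the arrays lie, and they depended on the level of the genes. The genes that were lower without overlap had a median level of 5.14, and 56.4% of them lay below the array median, whereas those that were higher without overlap had a median level of 7.01, with 23.4% below the array median. Over all genes the median level was 5.88, with 41.9% below the array median. With the genes split into 5 equal classes by level, in the second class from the dim end 20.4% were lower and 4.50% higher without overlap, and in the fourth class 7.78% were lower and 13.5% higher. When the deposited values were quantile normalized again, these shares became 12.4% lower and 11.5% higher in the second class and 11.6% lower and 8.77% higher in the fourth. After this scaling, the lower genes were no longer concentrated among the dim ones, nor the higher genes among the bright ones. This lean was seen over all genes, and its part in the counts of single lists was not tested.

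**Figure D2:**
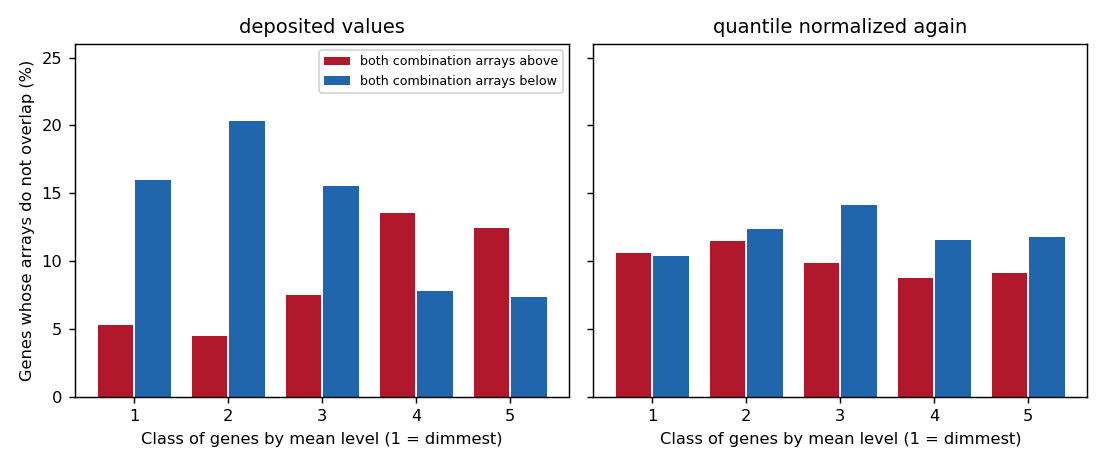
Bars give the percent of genes for which both combination arrays lay above (red) or below (blue) all 3 nimesulide arrays, in 5 equal classes of genes by mean log2 level from dim to bright, for the deposited values (left) and after another quantile normalization (right). In the deposited values the blue bars are higher in the 3 dim classes and the red bars in the bright ones, and after normalization all bars lie between 8.77% and 14.1%.

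The genes with the smallest p are given by their values, since none passed the adjusted test. CAP2, which codes for a protein that binds actin monomers, had values of 6.84 and 6.77 on combination arrays A and B, against 6.44, 6.43 and 6.29 on nimesulide arrays A, B and C. Both combination arrays lay above every nimesulide array and also above the cisplatin and control arrays. The difference was 0.41 ± 0.09 (SE; limma adjusted p = 0.707), and it was 0.40 within letter A and 0.33 within letter B, while another probe set of CAP2 gave 0.14.

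Among the higher genes were 2 that code for parts of the transcription machinery built around the TATA-binding protein. TBPL1, a relative of that protein, had 6.91 and 7.07 on combination arrays, against 6.71, 6.53 and 6.62 on nimesulide arrays (0.37). BTAF1, an ATPase that removes the TATA-binding protein from DNA, had 6.10 and 6.05 with the combination, against 5.80, 5.75 and 5.62 with nimesulide (0.35, and 0.30 within each letter). For both genes the groups did not overlap, and the adjusted p was 0.707.

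The mitotic spindle gene DLGAP5, whose product bundles the microtubules near the chromosomes, had 8.53 and 8.92 on combination arrays and 8.31, 8.31 and 8.33 on nimesulide arrays. It had 8.57, 8.72 and 8.79 on cisplatin arrays and 8.40, 8.30 and 8.37 on control arrays. Every array with cisplatin was thus above every array without it, with nimesulide and without. The difference was 0.41 ± 0.10 (SE) with nimesulide and 0.34 ± 0.09 (SE) for cisplatin against control, and both failed the adjusted limma test.

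ZNF107, a zinc finger gene, was dimmer, with 3.78 and 3.90 on combination arrays and 3.43, 3.35 and 3.56 on nimesulide arrays (0.39). FERMT2, which codes for the integrin activator kindlin-2, had 8.30 and 8.24 with the combination, against 8.06, 7.79 and 7.94 with nimesulide (0.34), and its other probe sets gave 0.06 and 0.20. The remaining higher genes of smallest p were DNAJB6, a co-chaperone, KLHDC10, TXK and the bicarbonate transporter gene SLC4A7, with differences between 0.27 and 0.35. The other probe sets gave -0.08 to 0.09 for KLHDC10 and -0.01, 0.03 and 0.25 for SLC4A7.

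NR1I3, the nuclear receptor CAR that controls drug-metabolising enzymes in liver, had 4.74 and 4.64 on combination arrays, against 5.02, 5.28 and 5.22 on nimesulide arrays. This was the largest negative difference among genes, -0.48 ± 0.09 (SE; limma adjusted p = 0.672), at -0.28 within letter A and -0.64 within letter B. All these values lay below the array medians.

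TSC2 codes for tuberin, the GTPase-activating protein that restrains the growth kinase mTORC1. It had 5.29 and 5.30 on combination arrays and 5.78, 5.67 and 5.66 on nimesulide arrays, a difference of -0.41 ± 0.08 (SE; limma adjusted p = 0.672). The combination arrays also lay below all 6 cisplatin and control arrays, and the cisplatin difference with nimesulide minus that without it was -0.46, which failed the adjusted test. The difference was -0.49 within letter A and -0.38 within letter B. A second, dimmer probe set of TSC2 gave -0.10.

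TCAF1, which regulates the cold and menthol channel TRPM8, had 6.79 and 6.78 on combination arrays, against 7.15, 7.10 and 7.05 on nimesulide arrays (-0.32), but its 3 other probe sets gave 0.01, -0.08 and 0.00. NCKIPSD, which binds the actin regulator NCK, had 4.94 and 5.12 with the combination, against 5.33, 5.48 and 5.39 with nimesulide (-0.37). VIM, the intermediate filament vimentin of mesenchymal cells, had 4.80 and 4.68 with the combination, against 5.02, 5.21 and 4.98 with nimesulide (-0.34). In each of these genes both combination arrays lay below all nimesulide arrays. The other lower genes of smallest p were SPART, SLC10A1, TMPRSS6, KLF9 and TMCC2, with differences between -0.37 and -0.28. The other probe set of SPART gave -0.03, and those of KLF9 gave -0.22 and 0.12.

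**Figure D3:**
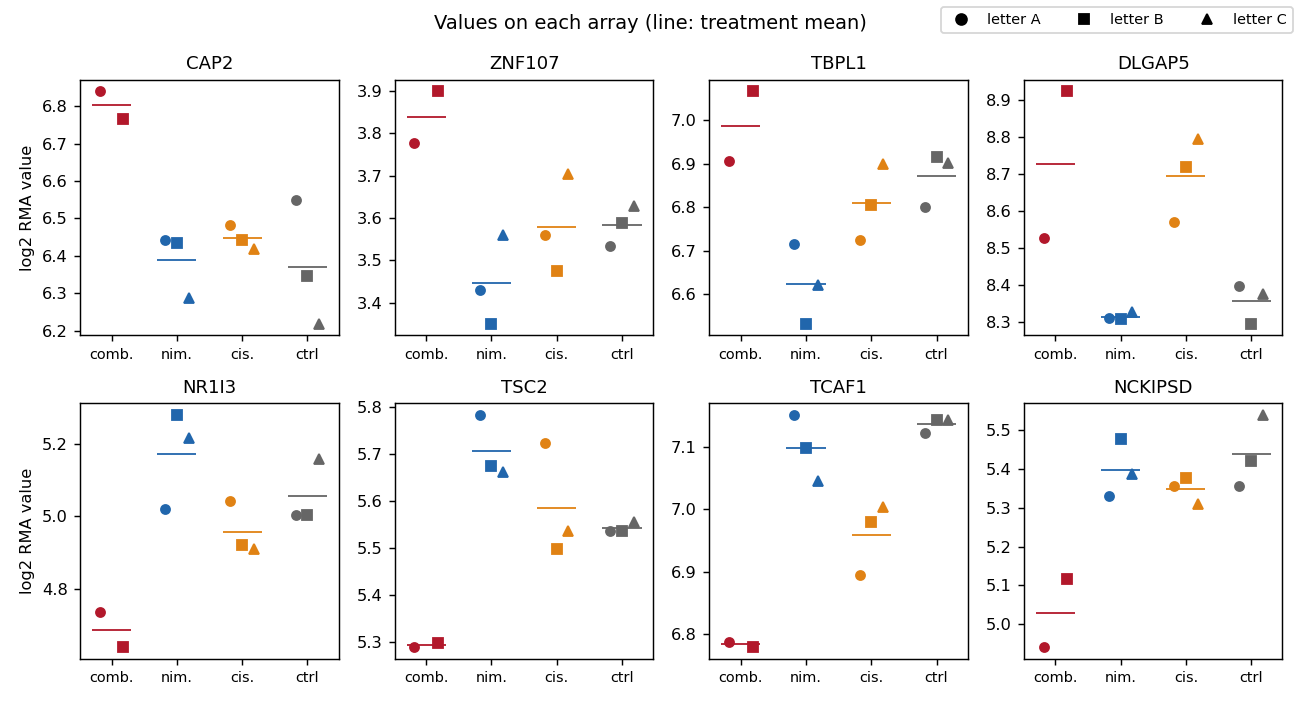
Panels give the log2 RMA value of a gene on each array, with a symbol for the letter and a line at the mean of the combination (comb.), nimesulide (nim.), cisplatin (cis.) and control (ctrl) arrays; each panel has its own vertical scale, which does not start at 0. In all 8 panels the combination arrays do not overlap the nimesulide arrays, and in the DLGAP5 panel the cisplatin arrays also lie above the controls.

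Genes with the largest differences repeated within both letters were ranked by the smaller of the 2. BLTP1 led the higher ones with 0.50 within letter A and 0.57 within letter B, yet its other probe sets gave -0.17 and -0.08. ZNF248 had 0.40 and 0.38, GATA6, a transcription factor of endodermal and heart development, 0.34 and 0.42, and the receptor phosphatase gene PTPRK 0.34 and 0.36. The lower genes included OPRM1, the mu opioid receptor, at -0.58 and -0.44. Its values on the 5 arrays, 4.16 to 4.82, lay below the array medians, and its other probe sets gave group differences of -0.17 and -0.12. Also lower were the mRNA export factor gene NXT2 at -0.53 and -0.36 (-0.01 as a group difference by its other probe set), and the transcription factor gene SP4 at -0.32 and -0.40. EXPH5 and PHF20 (0.06 and 0.02 by its other probe sets) on the higher side and NEO1 on the lower side completed the set together with genes already named, and no gene of the set had an adjusted limma p under 0.672.

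Of the genes that answer to p53, 22 of 40 listed were measured, 11 were higher, and their median difference was 0.00. Over all genes the combination mean was higher for 3830 (44.8%) and lower for 4719 (55.2%), with a median difference of -0.01. CDKN1A, the cyclin-dependent kinase inhibitor p21, had 8.21 and 8.24 on combination arrays and 8.20, 8.27 and 8.25 on nimesulide arrays. These values overlapped throughout, and the 95% interval of the difference was -0.19 to 0.16. MDM2, the ubiquitin ligase that degrades p53, differed by 0.02 (95% interval -0.15 to 0.19). GADD45A, a stress gene, had 9.44 and 9.47 on combination arrays and 9.23, 9.84 and 9.41 on nimesulide arrays.

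Among p53 genes of smallest p, the survival gene BCL2L1 had 8.92 and 8.97 on combination arrays and 9.09, 9.14 and 9.17 on nimesulide arrays (-0.19), while its other probe sets gave 0.10 and -0.03. The gene of the TRAIL receptor TNFRSF10B had 6.76 and 6.94 with the combination, against 6.96, 7.02 and 6.96 with nimesulide (-0.13), and the oxidoreductase gene TP53I3 had 7.10 and 7.22 with the combination, against 6.95, 7.04 and 7.09 with nimesulide (0.14). Each was free of overlap, and none of the 22 had an unadjusted p under 0.05.

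Of 21 measured genes of the damage checkpoint, 11 were higher and the median was 0.00. The kinase genes ATR, ATM, CHEK1 and CHEK2 differed by -0.05, -0.09, -0.06 and 0.00, and all overlapped, with other probe sets of ATR at 0.07 and of CHEK1 at 0.01. RAD17, which loads the checkpoint clamp onto damaged DNA, had 7.29 and 7.19 on combination arrays and 7.13, 7.04 and 7.06 on nimesulide arrays (0.16), with other probe sets at -0.14 and 0.07. H2AX, the histone variant phosphorylated next to DNA breaks, differed by 0.15, while its 3 other probe sets gave -0.14 to -0.04.

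The repair of platinum lesions was represented by several lists. In the Fanconi anaemia pathway for crosslinks between strands, 9 of 25 listed genes were measured and 7 were higher, against 44.8% of all genes. The median was 0.08 (0.10 within letter A and 0.07 within letter B). The list averaged 7.04 with the combination, 6.98 with nimesulide, 7.01 with cisplatin and 7.04 in controls. For cisplatin against control, 4 of the 9 were higher, against 42.6% of all genes, and the median was -0.004. FANCI, a subunit of the clamp that is ubiquitinated at crosslinks, had 7.29 and 7.36 on combination arrays, against 7.14, 7.11 and 7.12 on nimesulide arrays. The difference was 0.20 ± 0.07 (SE; limma adjusted p = 0.718), and a second probe set gave 0.14. FANCI averaged 7.21 on cisplatin arrays and 7.31 on control arrays. FAAP24, which helps to recruit the core complex to DNA, had 5.60 and 5.89 with the combination, against 5.48, 5.54 and 5.54 with nimesulide (0.22). ERCC1 was higher by 0.13 and its nuclease partner ERCC4 lower at -0.13, each without overlap.

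In nucleotide excision repair, 10 of 22 genes were higher, 4 were higher and 4 lower without overlap, against 44.8%, 8.66% and 13.4% of all genes, and the median was -0.02. The 3 genes of smallest p all code for subunits of TFIIH, the complex that opens DNA in repair and at promoters. CDK7, its kinase, had 8.20 and 8.19 on combination arrays and 7.88, 7.63 and 7.94 on nimesulide arrays. Both combination arrays lay above all nimesulide arrays, by 0.38 ± 0.12 in the group difference (SE; limma adjusted p = 0.707), with 0.31 within letter A and 0.56 within letter B. MNAT1, which assembles the kinase module, had 7.57 and 7.63 with the combination, against 7.48, 7.43 and 7.46 with nimesulide (0.15), and the core subunit gene GTF2H1 had 8.17 and 8.38 with the combination, against 8.11, 8.0 and 8.18 with nimesulide (0.18), with overlap. Cisplatin against control gave -0.01 for CDK7, -0.04 for MNAT1 and 0.11 for GTF2H1.

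In mismatch repair 3 of 5 genes were higher. MSH3 was higher by 0.16 and PMS1 by 0.15, and MSH6 was lower at -0.12, each without overlap, and the other probe sets of MSH6 gave -0.03 and 0.01. In homologous recombination 5 of 14 genes were higher, with a median of -0.07. RAD54L, a motor protein that moves along DNA, had 6.0 and 6.13 on combination arrays and 6.18, 6.46 and 6.16 on nimesulide arrays (-0.20), and the helicase gene WRN had 5.98 and 5.98 with the combination, against 5.76, 5.86 and 5.91 with nimesulide (0.14). BRCA1 differed by 0.02. In translesion synthesis, which copies past lesions, 4 of 9 genes were higher, 0 were higher within letter A, and UBE2N, an enzyme that extends ubiquitin chains on PCNA, differed by -0.20, with other probe sets at -0.09 and -0.01.

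Platinum enters and leaves cells partly through copper transporters and is bound by thiols. Of 23 measured genes of platinum handling, 7 were higher and 16 lower, with a median of -0.04. The copper importer gene SLC31A1 had 6.53 and 6.64 on combination arrays and 6.33, 6.53 and 6.60 on nimesulide arrays (0.10), with overlap. The copper exporters ATP7A and ATP7B differed by -0.03 and -0.13, and the glutathione transferase gene GSTP1 by -0.10. The efflux pump genes ABCC2 and ABCC5 differed by -0.20 and -0.18. Only ABCC5 was free of overlap, at 6.09 and 6.08 on combination arrays against 6.16, 6.36 and 6.28 on nimesulide arrays.

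Of 9 genes in the metallothionein list, 3 were higher, 7 were higher within letter A and 3 within letter B. MT2A, a metal-binding protein, had 11.62 and 11.77 on combination arrays and 11.48, 11.94 and 11.84 on nimesulide arrays, which overlapped. MTF1, the factor that activates metallothionein genes, had 6.45 and 6.65 with the combination, against 6.70, 6.78 and 6.67 with nimesulide (-0.17), without overlap, but its other probe set gave 0.00. The zinc exporter gene SLC30A1 differed by 0.20 and MT1F by 0.13.

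Of 24 genes of intrinsic apoptosis, 14 were higher and 5 were higher without overlap, against 44.8% and 8.66% of all genes. The pore-forming BAK1 had 6.23 and 6.22 on combination arrays, against 6.13, 6.05 and 5.99 on nimesulide arrays (0.17). The caspase gene CASP2 had 6.10 and 6.08 with the combination, against 6.08, 5.73 and 5.75 with nimesulide (0.24), so that combination B was level with nimesulide A. Among 17 genes of death receptor signalling, TNFRSF10C, a decoy receptor for TRAIL, differed by 0.25 and TNFRSF21 by -0.20, both without overlap, and another probe set of TNFRSF10C gave -0.08.

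Of the 31 gene lists, the ATF4 and amino acid response list had the largest number of members that were higher without overlap. ATF4 is a transcription factor made when amino acids are short or the endoplasmic reticulum is stressed, and its targets supply amino acids and charge transfer RNAs. Of 38 measured members, 29 were higher, 10 were higher without overlap, 0 were lower without overlap, and 5 had an unadjusted p under 0.05, against 44.8%, 8.66%, 13.4% and 2.61% of all genes. No member passed the adjusted test. The median difference was 0.10, with 0.14 within letter A and 0.05 within letter B, and 21 members were higher within both letters.

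Some of these genes carry in their promoters the core of the element that ATF4 and C/EBP factors bind together. A search for TGATGNAA on both strands, from 250 bases before to 50 bases after the start of each gene in RefSeq (GRCh38.p14), found it for 9 of 31 list members with a promoter sequence (29.0%), against 1003 of 27305 promoters (3.67%) and 161 of 6835 of the measured genes with one (2.36%). Of 7 members that were higher without overlap and had a promoter sequence, 3 held it. A match describes letters and is no measure of binding. The list was made of genes that answer to ATF4, so its share of matches says nothing about these arrays. PCK2, the member of smallest p, had 0 matches. The promoters of 2 transfer RNA synthetase genes with such a match, IARS1 (chr9:92293648-92293947, minus strand) and CARS1 (chr11:3057374-3057673, minus strand), and of ASNS (chr7:97872359-97872658, minus strand), the asparagine synthetase gene, show the element in capitals, read along the gene's strand, where TTGCATCA is the same element on the opposite strand.
IARS1: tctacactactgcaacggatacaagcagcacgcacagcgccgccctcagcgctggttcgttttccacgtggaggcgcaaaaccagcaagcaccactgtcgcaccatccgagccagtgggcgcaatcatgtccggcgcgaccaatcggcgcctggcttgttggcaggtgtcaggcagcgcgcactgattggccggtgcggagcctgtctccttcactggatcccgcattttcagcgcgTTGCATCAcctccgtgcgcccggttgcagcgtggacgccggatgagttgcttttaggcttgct
CARS1: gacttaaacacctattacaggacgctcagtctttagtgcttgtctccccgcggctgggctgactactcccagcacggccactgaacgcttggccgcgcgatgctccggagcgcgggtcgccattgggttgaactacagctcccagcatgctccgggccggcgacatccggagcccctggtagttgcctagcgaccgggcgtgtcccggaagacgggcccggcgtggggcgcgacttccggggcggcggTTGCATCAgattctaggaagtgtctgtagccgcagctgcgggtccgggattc
ASNS: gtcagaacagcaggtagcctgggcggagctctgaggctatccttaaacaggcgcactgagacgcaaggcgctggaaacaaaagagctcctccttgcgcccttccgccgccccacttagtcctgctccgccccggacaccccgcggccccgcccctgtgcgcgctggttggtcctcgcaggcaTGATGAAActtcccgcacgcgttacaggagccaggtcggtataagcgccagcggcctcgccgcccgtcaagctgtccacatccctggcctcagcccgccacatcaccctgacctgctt

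PCK2, the mitochondrial form of phosphoenolpyruvate carboxykinase, had 7.54 and 7.40 on combination arrays, against 7.26, 7.16 and 7.21 on nimesulide arrays. It was the member with the smallest p, with a difference of 0.26 ± 0.09 (SE; limma adjusted p = 0.707), 0.28 within letter A and 0.23 within letter B. IARS1 had 10.35 and 10.13 with the combination, against 10.10, 9.93 and 10.03 with nimesulide (0.22 ± 0.08, SE; limma adjusted p = 0.719). SHMT2, which makes glycine from serine in mitochondria, had 9.07 and 9.03 with the combination, against 8.78, 8.81 and 8.99 with nimesulide (0.19). In these 3 genes both combination arrays were above all nimesulide arrays.

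Outside the naming rule, and chosen after its values were seen, ATF4 itself had 10.47 and 10.39 on combination arrays, against 10.29, 10.23 and 10.30 on nimesulide arrays (0.16 ± 0.07, SE; limma adjusted p = 0.734). CARS1, also chosen in this way for its promoter, had 10.05 and 10.00 with the combination, against 9.81, 9.87 and 9.93 with nimesulide (0.15), and its other probe set gave 0.07. ASNS, shown for the same reason, had 9.82 and 9.63 with the combination, against 9.50, 9.46 and 9.73 with nimesulide, so that combination B lay below nimesulide C. The stress gene DDIT3 had 7.28 and 6.72 with the combination, against 6.84, 6.78 and 6.94 with nimesulide, which put only combination A above the nimesulide arrays.

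Averaged over its 38 genes, the ATF4 list stood at 8.34 and 8.22 on combination arrays, against 8.21, 8.15 and 8.21 on nimesulide arrays, 8.12, 7.98 and 8.07 on cisplatin arrays and 8.08, 8.01 and 8.01 on control arrays. Combination A was the highest of the 11 arrays, and combination B was close to nimesulide A and C. The median difference was 0.03 without combination A and 0.16 without combination B, and 0.09 after another quantile normalization. For cisplatin against control, 19 of the 38 members were higher, against 42.6% of all genes, and the median was 0.00. The median of the difference between these cisplatin effects was 0.07, and 0 members passed its adjusted test.

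The list of G2/M and mitosis genes had 40 of 47 members higher, against 44.8% of all genes. Higher without overlap were 6 members, against 8.66% of all genes and 12.5% of genes in the brightest of the 5 classes by level. The list mean lay in the range of that class on every array. The count of 6 thus shows no clear excess over genes of similar level. The median of the list was 0.11, and no member passed the adjusted test. AURKA, a kinase of spindle assembly, had 9.07 and 9.40 on combination arrays and 8.95, 9.09 and 8.99 on nimesulide arrays (0.23), and its 2 other probe sets gave 0.04 and 0.01. SMC4, a condensin subunit, had 9.86 and 10.01 with the combination, against 9.81, 9.71 and 9.79 with nimesulide (0.17). The list mean was 8.31 and 8.55 on combination arrays, against 8.33, 8.35 and 8.31 on nimesulide arrays. Combination B was therefore the array that stood apart.

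Within letter A the median of the mitosis genes was -0.02, and within letter B it was 0.21, and without combination B the group median was -0.00. In cells without nimesulide the list averaged 8.42, 8.44 and 8.46 on cisplatin arrays and 8.35, 8.36 and 8.29 on control arrays, without overlap. There 41 of the 47 members were higher, with medians of 0.08, 0.06 and 0.17 within letters A, B and C, and 0 passed the adjusted test. The median difference for cisplatin was 0.10 without nimesulide, and 36 members had the same sign with and without it. The median of the difference between the cisplatin effects was -0.02.

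In the G1/S and DNA replication list, 16 of 51 members were higher, 3 were higher and 11 lower without overlap, against 44.8%, 8.66% and 13.4% of all genes, and the median was -0.03. CDT1, which licenses replication origins, had 6.57 and 6.41 on combination arrays and 6.38, 6.20 and 6.29 on nimesulide arrays (0.20). PRIM1, the primase subunit, had 7.89 and 8.08 with the combination, against 7.77, 7.81 and 7.87 with nimesulide (0.17). Both were thus on the opposite side to most of the list. Its median was 0.02 without combination A.

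Genes that NF-kappaB activates in inflammation had 7 of 33 members higher, against 44.8% of all genes, and a median of -0.13, and no member passed the adjusted test. Only 4 members were lower without overlap, no larger a share than the 13.4% of all genes. MMP9, a matrix protease, had 5.05 and 5.18 on combination arrays and 5.35, 5.42 and 5.46 on nimesulide arrays (-0.30 ± 0.08, SE; limma adjusted p = 0.707), with -0.30 within letter A and -0.25 within letter B. The cytokine gene IL1B had 5.61 and 5.50 with the combination, against 5.70, 5.73 and 5.72 with nimesulide (-0.16), and IL1RN, its secreted antagonist, had 6.40 and 6.61 with the combination, against 6.26, 6.35 and 6.41 with nimesulide (0.17), while its 4 other probe sets gave -0.20 to 0.05. NFKBIA, the inhibitor of NF-kappaB that it induces itself, was chosen after its values were seen. It had 8.44 and 8.47 on combination arrays and 8.37, 8.99 and 8.66 on nimesulide arrays, so that nimesulide B was the high array.

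The whole NF-kappaB list shared that pattern, at 5.43 and 5.48 on combination arrays, against 5.43, 5.73 and 5.52 on nimesulide arrays. Its median was -0.01 within letter A and -0.26 within letter B, and -0.02 when nimesulide B was left out. The letter B arrays of cisplatin and control were also the highest of their treatments for this list, at 5.71 and 5.74.

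Genes of cholesterol synthesis went with the same array in the other direction. Of 22 members 20 were higher, against 44.8% of all genes. Free of overlap were 0, against 8.66% higher and 13.4% lower of all genes. The median was 0.12, with -0.05 within letter A and 0.24 within letter B. INSIG1, a sterol sensor in the endoplasmic reticulum, had 8.44 and 8.35 on combination arrays and 8.52, 7.61 and 8.14 on nimesulide arrays (0.31). The list averaged 8.07 and 8.04 on combination arrays and 8.12, 7.77 and 7.97 on nimesulide arrays, and without nimesulide B the median was 0.01. The letter B arrays of cisplatin and control were also the lowest of their treatments for this list, at 7.96 and 7.90.

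**Figure D4:**
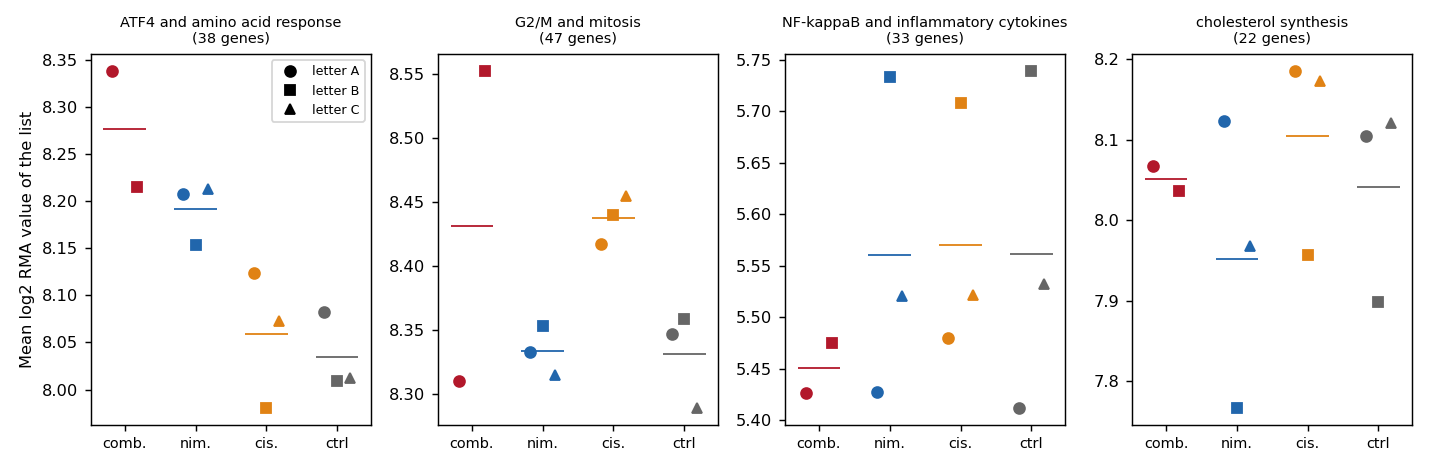
Points are the mean log2 RMA value over the genes of a list on each array, with symbols for the letters and a line at the treatment mean, for combination (comb.), nimesulide (nim.), cisplatin (cis.) and control (ctrl); the vertical scales differ and do not start at 0. Combination A is highest for the ATF4 list (8.34), combination B for the mitosis list (8.55), and nimesulide B is the highest nimesulide array for the NF-kappaB list (5.73) and the lowest for the cholesterol list (7.77).

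Nimesulide acts on prostaglandin synthesis, and the genes of the prostaglandin and leukotriene pathways are the ones nearest to its target. Of 35 members 15 were higher, 2 were higher and 8 lower without overlap, against 44.8%, 8.66% and 13.4% of all genes, and the median was -0.03. The list mean was 5.26 to 5.32 on the 5 arrays, close to 5.29, where 2 of the 5 classes by level meet. In the dimmer of these classes 4.50% of genes were higher and 20.4% lower without overlap, and in the brighter 7.49% and 15.6%. The count of 8 lower members thus shows no clear excess over genes near the mean level of the list. An unadjusted p under 0.05 was found for 1 higher and 7 lower members, against 2.61% and 4.68% of all genes. Whether these counts by p depend on level was not tested. The receptor genes among the lower ones included TBXA2R, the thromboxane receptor, with 6.03 and 6.18 on combination arrays and 6.24, 6.37 and 6.48 on nimesulide arrays. Its difference was -0.26 ± 0.08 (SE; limma adjusted p = 0.707), and its other probe sets gave -0.07 and -0.03. PTGER1, a prostaglandin E receptor, had 6.45 and 6.55 with the combination, against 6.68, 6.69 and 6.66 with nimesulide (-0.18), but its other probe set gave 0.09.

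CBR1, a carbonyl reductase that also acts on prostaglandins, had 6.66 and 6.77 on combination arrays and 6.36, 6.32 and 6.59 on nimesulide arrays (0.30). PTGS2, the cyclooxygenase that nimesulide inhibits, was chosen for that role. It was dim on every array, at 3.19 and 3.27 on combination arrays and 3.12, 3.27 and 3.27 on nimesulide arrays, with a 95% interval of the difference of -0.20 to 0.21. The median of the list was 0.01 among probe sets above the median mean and -0.01 after another quantile normalization.

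Of 44 interferon-stimulated genes 14 were higher, and the median was -0.04, with 0.01 within letter A and -0.08 within letter B. IFI16, a sensor of DNA, had 8.38 and 8.41 on combination arrays and 8.08, 8.08 and 8.15 on nimesulide arrays (0.29), with other probe sets at 0.03 and 0.01, and the chemokine gene CXCL10 had 4.48 and 4.59 with the combination, against 4.68, 4.72 and 4.70 with nimesulide (-0.17). In the cornified envelope list, 0 of 33 members were higher and 6 lower without overlap, against 8.66% and 13.4% of all genes. The list mean lay in the third class by level on the 5 arrays, where 7.49% of genes were higher and 15.6% lower. The lower ones included TGM3, a crosslinking enzyme of the envelope, with 4.81 and 4.69 on combination arrays and 5.00, 5.05 and 4.96 on nimesulide arrays (-0.26). NQO1, a quinone reductase under NRF2 control, had 10.20 and 10.12 with the combination, against 10.34, 10.49 and 10.41 with nimesulide (-0.25), in a list with a median of 0.00, and its other probe sets gave 0.06 and -0.00.

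**Figure D5:**
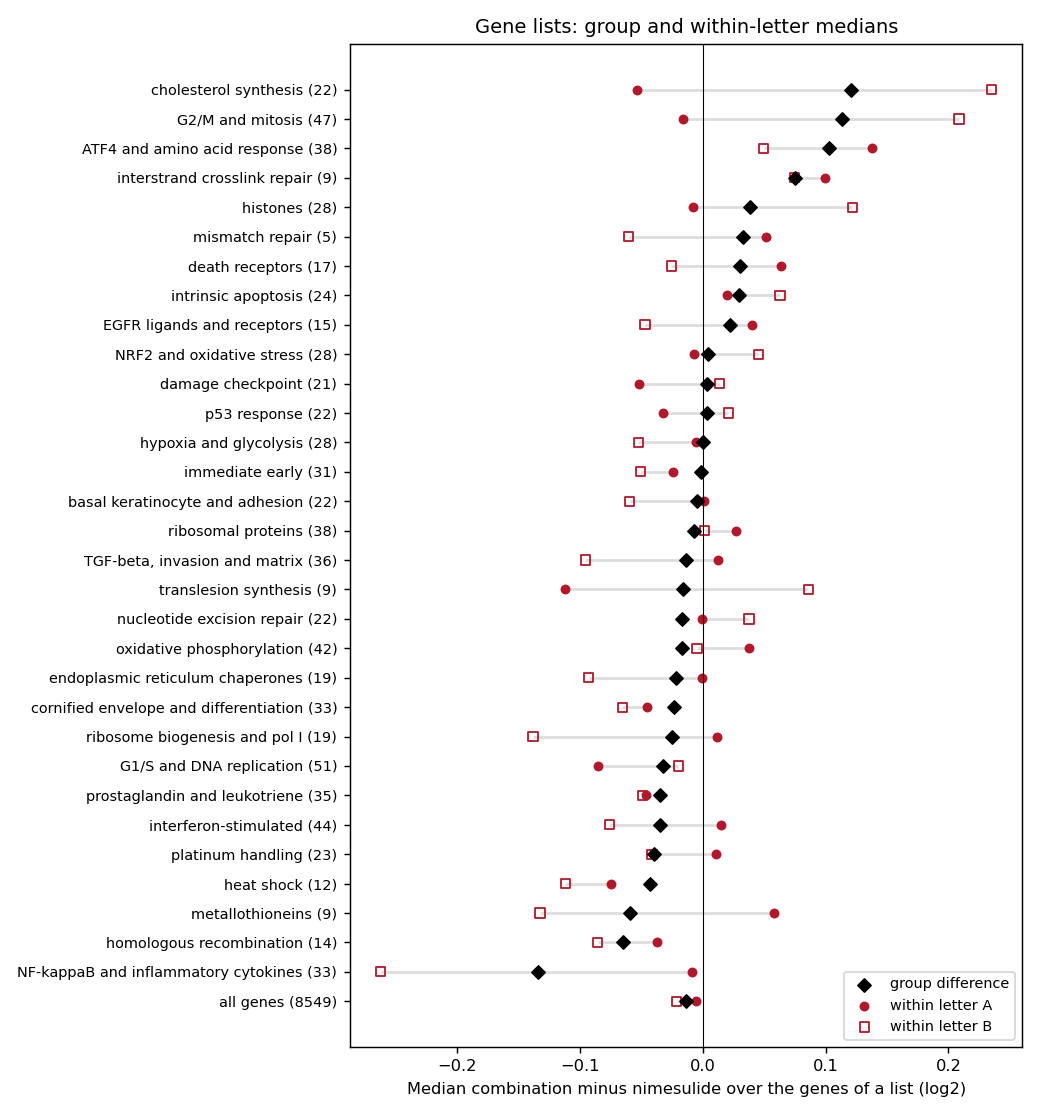
For each gene list (number of measured genes in brackets) the black diamond is the median combination minus nimesulide difference in log2 units, and the red circle and open square are the medians within letters A and B. The mitosis and NF-kappaB lists have a median near 0 within letter A (-0.02 and -0.01) and far from it within letter B (0.21 and -0.26). The cholesterol list has medians of opposite sign, -0.05 within letter A and 0.24 within letter B. The ATF4 and crosslink repair lists have medians above 0 within both. So do intrinsic apoptosis (0.02 within letter A and 0.06 within letter B) and ribosomal proteins (0.03 and 0.001).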

How the data were processed

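RNA was hybridised to Affymetrix U133A arrays, 1 per sample. The deposited table holds log2 values (judged from their range of 2.53 to 13.4) that the authors made with RMA, per the labels; the RMA version and the arrays normalised together are not given in the sources used here. In the platform annotation 14045 probe sets had 1 symbol, 792 several and 1546 none. limma 3.58.1 (R 4.3.3, lmFit, then eBayes) fitted the 4 treatment means to 11 arrays, with 7 residual degrees of freedom, two-sided p-values and Benjamini-Hochberg adjustment over 16383 probe sets. The fit was tested on simulated data. The members, 31 gene lists (782 of 1028 genes measured) and 4 marker lists were chosen with earlier results of these data known, so lists are described by counts and medians. Named genes were the 10 higher and 10 lower of smallest p, the 8 higher and 8 lower without overlap by the smaller letter difference, and 3 per list by p, plus described members of the p53, checkpoint, repair, platinum and metallothionein lists. The number of arrays limits the precision. Alternatives were the replicate block, subsets of arrays, another quantile normalization, a level filter, other moderation and a median over each gene's probe sets.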

Additional observations from a re-analysis of the deposited data

Results flagged for a closer look

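The squamous epithelial markers had within-letter medians of opposite sign with and without nimesulide. By the group differences, however, 11 of the 12 genes had the same sign with and without it. Their median was -0.03 within letter A and -0.02 within letter B for combination minus nimesulide, and 0.05, 0.02 and 0.04 within letters A, B and C for cisplatin minus control. The median over the 12 genes of the cisplatin difference with nimesulide minus that without it was -0.0308. This difference was not tested. The median of the group differences with nimesulide, which also uses nimesulide C, was 0.03, and that for cisplatin against control was also 0.03.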

How the results depend on the processing

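No probe set was called for the combination against nimesulide in any of the 13 alternatives, with 476 to 1554 probe sets at an unadjusted p under 0.05 and smallest adjusted p-values between 0.205 and 1.0. Leaving out each array in turn gave 0 to 0 calls. The smallest adjusted p of 0.205 was found without nimesulide A. The replicate block, with the letter as a term, called 0 probe sets here, with 1554 at an unadjusted p under 0.05 and a smallest adjusted p of 0.410. Same-letter arrays correlated at 0.0831 to 0.355 after removal of treatment means (15 pairs), at 0.0883 and 0.210 for combination and nimesulide, and arrays with different letters at -0.251 to 0.0342 (18 pairs without the combination). With 2 pairs and 1 correlation under 0.1, the main fit left the letter out. Every same-letter correlation was nonetheless above the different-letter ones given, which leave out the combination. Different-letter pairs with a combination array ranged from -0.210 to 0.144. The highest, combination B with nimesulide C, was above the same-letter 0.0883. With the letter as a term, the probe sets at an unadjusted p under 0.05 went from 1113 to 1554. The unadjusted p-values thus depend on this choice. The block changed no call. With letters A and B only, 1155 genes were higher without overlap, since fewer arrays must be cleared. Among probe sets above the median mean, 499 genes were lower without overlap. That filter leaves fewer genes, and it takes out the dim ones, among which lower genes were more common in the deposited values. Of 117 named genes 7 had a sign change: BIRC5 without combination B, and BLTP1, DUSP6, H2AX, MSH6, NR4A2 and STC1 when the median over all probe sets of a gene was used. The median of 28 of the 35 lists had a sign change in some alternative.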
